A study of Mus musculus with 32 samples.

Results

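The 8 genes described here encode DNA-binding transcription factors: the T-box factors Tbx2, Tbx3 and Eomes, the BTB zinc finger repressors Zbtb16 and Bcl6, the E protein Tcf4, and the basic helix-loop-helix repressors Bhlhe40 and Bhlhe41. They were chosen by their response to acyline and LH in Leydig cell immunoprecipitates (IPs), as T-box factors and repressors whose transcripts LH lowers. Each was read from the probe set that names it as its single gene, so the genes account for 8 of the 35556 probe sets on the array and 8 of the 21789 that name 1 gene. Because the rule used the Leydig responses to acyline and LH, those responses are given as descriptions, with no test. The name held for 6 of the 8: at LH 4 h Bhlhe40 was higher than under acyline alone, and Eomes lay near the bottom of the scale in every Leydig array.

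All mice carried the RiboTag allele, which adds a hemagglutinin (HA) tag to a ribosomal protein wherever Cre recombinase is active, and a Cre driver. Cyp17iCre tags Leydig cells, although the study saw HA also in scattered cells of the tubules, and AMH-Cre tags Sertoli cells. An anti-HA IP of whole testis homogenate was compared with the homogenate itself (input), 1 array per sample. Cyp17iCre: RiboTag mice gave 3 inputs and 3 IPs after saline, 2 IPs after 4 days of the GnRH antagonist acyline, which lowers pituitary LH and FSH, and 2 IPs each at 1 h and 4 h after a single injection of human LH following acyline. AMH-Cre: RiboTag mice gave 5 inputs and 5 IPs after saline, and 2 IPs each after acyline, acyline with FSH for 1 h, acyline with FSH for 4 h, the GnRH antagonist cetrorelix, and cetrorelix with testosterone. By the study's account, these mice had the antagonist for 3 days, not 4 days as in Cyp17iCre mice, and testosterone for 4 h. The study describes the AMH-Cre mice as adult, and the labels do not tie arrays to single animals.

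T-box proteins share a DNA-binding domain named after Brachyury. Tbx2 and Tbx3 are close relatives that mostly repress, and are known for holding back cell cycle inhibitors, whereas Eomes mostly activates. Zbtb16 (PLZF) and Bcl6 repress by recruiting co-repressors and histone deacetylases through the BTB domain, and Zbtb16 is also a known marker of undifferentiated spermatogonia. Tcf4 is an E protein that pairs with other helix-loop-helix factors, and Bhlhe40 and Bhlhe41 (DEC1 and DEC2) bind E-boxes and oppose the circadian activator CLOCK:BMAL1. In Leydig cells LH acts through its receptor and cyclic AMP to drive steroid synthesis.

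Values are log2 RMA values, the logarithm of background-corrected and quantile-normalized probe set intensity, and are compared only within a gene because probe sets differ in brightness. Equal amounts of RNA were used, so a value is a share of the RNA on the array, and fewer cells of a type cannot be told apart from less RNA per cell. The number of arrays limits the precision, and p-values speak only for the spread among these samples, which may be technical. Array medians ranged from 6.36 to 6.50, and arrays of the same group correlated at 0.988 to 0.994 over all probe sets. The labels held: 7 of 7 measured Leydig markers were enriched in the Leydig IPs and 11 of 11 measured Sertoli markers in the Sertoli IPs. In the Leydig IPs 1 of the 11 Sertoli markers, transferrin (Trf), was also enriched, and their summed linear signal was 12921 to 13961 in the saline IPs against 7471 to 7863 in the inputs and 27129 to 29139 in the Sertoli saline IPs. Lhcgr and Prlr among the Leydig markers and Rhox5 among the Sertoli markers were not analysed here.

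**Figure D1:**
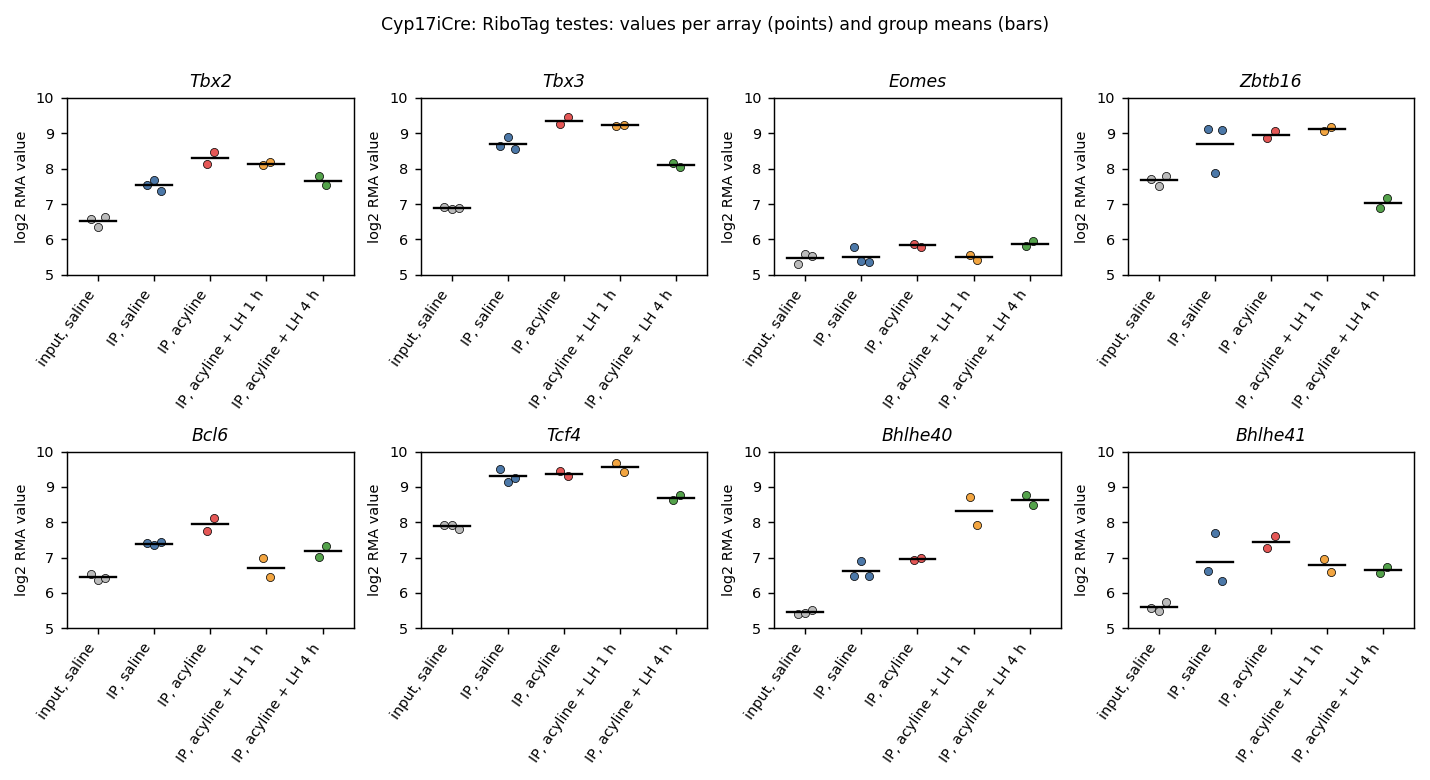
Log2 RMA values of the 8 genes in Cyp17iCre: RiboTag testes, 1 point per array with a bar at the group mean, for saline inputs, saline IPs and IPs after acyline and after LH for 1 h and 4 h. In 6 panels both LH 4 h arrays lie below both acyline arrays, in the Bhlhe40 panel they lie above, and in the Eomes panel no array passes 5.94.

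Tbx3 was the only gene of the 8 whose Leydig IP groups were all separated from each other and from the inputs. The Leydig inputs had log2 values of 6.92, 6.85 and 6.88, and the saline IPs 8.64, 8.89 and 8.56. The values were 9.26 and 9.46 after acyline, 9.21 and 9.25 at LH 1 h, and 8.15 and 8.06 at LH 4 h. Every Leydig IP group was separated from the next in the order acyline, LH 1 h, saline, LH 4 h, and all lay above the inputs. The acyline and LH 1 h arrays nearly met, at 9.26 and 9.25. Acyline lay above saline by 0.66 on the log2 scale (standard error 0.12, 1.58-fold). LH 1 h lay below acyline by a log2 difference of -0.13 (standard error 0.13), about the size of the error. LH 4 h lay below acyline by a log2 difference of -1.26 (standard error 0.13), a 2.39-fold lower value, and below saline by -0.60 (standard error 0.12).

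Tbx2 had its highest values in the same groups, with less separation. The log2 values of Tbx2 were 6.58, 6.35 and 6.63 in the inputs, 7.55, 7.67 and 7.36 in the saline IPs, 8.12 and 8.46 after acyline, 8.09 and 8.19 at LH 1 h, and 7.78 and 7.54 at LH 4 h. The acyline and LH 1 h arrays overlapped with each other and lay above the LH 4 h and saline arrays, which also overlapped with each other. Acyline lay above saline by 0.77 (standard error 0.14, 1.70-fold), and LH 4 h lay below acyline by a log2 difference of -0.63 (standard error 0.15), a 1.55-fold lower value. Unlike Tbx3, Tbx2 did not go below saline at LH 4 h, with a log2 difference of 0.13 (standard error 0.14).

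Over the 9 Leydig IPs the values of Tbx2 and Tbx3 correlated at 0.80. Among 16877 other probe sets with 1 gene symbol that passed the filter on signal, those most like Tbx3 were Deptor, an inhibitor of the mTOR kinase (Pearson r 0.992), Tbcel (0.981), Gramd1b, a sterol transfer protein (0.965), Olfr370 (0.962) and Slc45a3 (0.961). Those most like Tbx2 were the caveolar coat protein Cavin1 (0.973), Dock9 (0.969), the forkhead factor Foxj2 (0.968), isovaleryl-CoA dehydrogenase Ivd (0.959) and the survival factor Bcl2l1 (0.949). All of these were picked as the highest values among many over the same 9 arrays in 4 treatment groups, so they describe likeness only. Deptor had log2 values of 9.67, 9.82 and 9.54 after saline, 9.96 and 10.18 after acyline, 10.04 and 10.05 at LH 1 h, and 9.34 and 9.32 at LH 4 h. Its LH 4 h arrays, as those of Tbx3, lay below every other Leydig IP.

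Zbtb16 had the widest difference at LH 4 h from acyline among the 8 genes. Zbtb16 had log2 values of 7.71, 7.52 and 7.80 in the inputs, 9.12, 7.89 and 9.09 in the saline IPs, 8.86 and 9.07 after acyline, 9.07 and 9.17 at LH 1 h, and 6.90 and 7.16 at LH 4 h. The saline IP of replicate 2 lay more than 1 log2 unit below the other two. Acyline and LH 1 h overlapped with saline, and the LH 4 h arrays lay below every other Leydig array, inputs included. LH 4 h lay below acyline by a log2 difference of -1.93 (standard error 0.36), a 3.82-fold lower value, and below LH 1 h by -2.09 (standard error 0.36). Acyline against saline was 0.26 (standard error 0.33), and without saline replicate 2 it was -0.14.

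Since Zbtb16 also marks spermatogonia, the levels of germ cell markers in the same arrays are given beside it. The summed linear signal of 10 markers of spermatogonia and spermatocytes was 7662 and 8145 after acyline, 7982 and 8691 at LH 1 h, and 5755 and 6989 at LH 4 h. A large part of that sum was Kit, which Leydig cells express as well and which had log2 values between 11.40 and 12.28 in the Leydig IPs. Without Kit, a choice made after its values were seen, the sum over the other 9 markers was 3255 and 3413 after acyline, 3050 and 3703 at LH 1 h, and 3055 and 4086 at LH 4 h, so these ranges overlapped. Gfra1, a receptor of undifferentiated spermatogonia picked after its values were seen, had lower log2 values at LH 4 h (6.32 to 6.58) than after acyline (6.65 to 6.72). Such a fall without overlap was found for 26.3% of all probe sets. The 9 tested markers of this list had a median log2 difference of 0.03 in that comparison. Nanos2 lay between 4.80 and 5.08 in all Leydig IPs. No marker has a value of 0 on this scale. Kit itself fell at LH 4 h against acyline (log2 difference -0.71, standard error 0.10, limma adjusted p = 0.0322). The part of germ cell RNA in the Zbtb16 values was not tested.

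Tcf4 was level until LH 4 h. Tcf4 had log2 values of 7.92, 7.92 and 7.81 in the inputs, 9.51, 9.13 and 9.25 in the saline IPs, 9.44 and 9.31 after acyline, 9.69 and 9.44 at LH 1 h, and 8.62 and 8.76 at LH 4 h. Saline, acyline and LH 1 h overlapped, and LH 4 h lay below all 3. LH 4 h against acyline was -0.68 (standard error 0.15), a 1.61-fold lower value, and acyline against saline was 0.08 (standard error 0.14). Over the 9 Leydig IPs Tcf4 correlated with Zbtb16 at 0.92, the highest value among pairs of these 8 genes, and with Tbx3 at 0.78. The genes were chosen on their responses in these arrays. Correlations among them, that of Tbx2 with Tbx3 included, therefore describe likeness only.

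Bcl6 differed from these 4 in its timing, with its lowest values at LH 1 h. Its log2 values were 6.54, 6.36 and 6.43 in the inputs, 7.41, 7.35 and 7.44 in the saline IPs, 7.76 and 8.12 after acyline, 6.99 and 6.44 at LH 1 h, and 7.01 and 7.34 at LH 4 h. No group of Leydig IPs overlapped with another, in the order acyline, saline, LH 4 h, LH 1 h, while the LH 1 h arrays reached down to the inputs. The saline and LH 4 h arrays nearly met, at 7.35 and 7.34, as did LH 4 h and LH 1 h, at 7.01 and 6.99. LH 4 h against saline was -0.22 (standard error 0.18). LH 1 h lay below acyline by a log2 difference of -1.23 (standard error 0.20), a 2.34-fold lower value, and LH 4 h by -0.77 (standard error 0.20), a 1.70-fold lower value. Acyline lay above saline by 0.55 (standard error 0.18, 1.46-fold).

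Bhlhe41 was also lower at both times after LH, with a wide spread after saline. Bhlhe41 had log2 values of 5.57, 5.50 and 5.74 in the inputs, 6.62, 7.69 and 6.33 in the saline IPs, 7.28 and 7.62 after acyline, 6.97 and 6.60 at LH 1 h, and 6.55 and 6.73 at LH 4 h. Saline replicate 2, the array in which Zbtb16 was low, lay about 1 log2 unit above the other two and reached the acyline arrays. LH 1 h lay below acyline by a log2 difference of -0.67 (standard error 0.38) and LH 4 h by -0.81 (standard error 0.38), a 1.75-fold lower value. Acyline against saline was 0.57 (standard error 0.35) with all arrays and 0.98 without saline replicate 2.

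Bhlhe40, its closest relative, went the other way. Bhlhe40 had log2 values of 5.40, 5.44 and 5.53 in the inputs, 6.49, 6.91 and 6.48 in the saline IPs, 6.94 and 6.98 after acyline, 8.72 and 7.92 at LH 1 h, and 8.78 and 8.50 at LH 4 h. Both LH groups lay above every saline and acyline array and overlapped with each other. LH 1 h lay above acyline by 1.36 (standard error 0.25, 2.56-fold) and LH 4 h by 1.68 (standard error 0.25, 3.20-fold), and LH 4 h lay above saline by 2.01 (standard error 0.23, 4.04-fold).

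Eomes had log2 values of 5.31, 5.57 and 5.52 in the Leydig inputs, 5.77, 5.40 and 5.37 in the saline IPs, 5.88 and 5.80 after acyline, 5.56 and 5.43 at LH 1 h, and 5.81 and 5.94 at LH 4 h. The saline and LH 1 h IPs overlapped with the inputs, while the acyline and LH 4 h IPs lay above them. No difference between Leydig IP groups reached 1.5-fold. LH 4 h against acyline was 0.04 (standard error 0.15).

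The promoters of Bcl6 and Bhlhe41, which were both lower at LH 1 h and LH 4 h, are shown to let the E-boxes that Bhlhe40 and Bhlhe41 bind be seen in place. RefSeq promoter windows on GRCm38.p6 were at hand for Bcl6, Bhlhe41 and Eomes, 3 of the 8 genes, and not for Tbx2, Tbx3, Zbtb16, Tcf4 and Bhlhe40. The sequences hold the 250 bases before a transcription start on the strand of the gene. Capitals mark the letters searched on both strands: the E-box CACGTG, the short core of the cyclic AMP response element, TGACG, which lies within the full element TGACGTCA, the T-box core GGTGTGA, and the Bcl6 site TTCCTNGAA.
Bcl6, upstream start, chr16:23988853-23989102, minus strand: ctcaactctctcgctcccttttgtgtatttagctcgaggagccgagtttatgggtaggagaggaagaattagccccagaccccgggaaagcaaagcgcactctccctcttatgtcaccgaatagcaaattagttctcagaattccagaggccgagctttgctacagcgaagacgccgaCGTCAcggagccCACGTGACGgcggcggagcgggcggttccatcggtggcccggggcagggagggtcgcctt
Bcl6, downstream start, chr16:23981284-23981533, minus strand: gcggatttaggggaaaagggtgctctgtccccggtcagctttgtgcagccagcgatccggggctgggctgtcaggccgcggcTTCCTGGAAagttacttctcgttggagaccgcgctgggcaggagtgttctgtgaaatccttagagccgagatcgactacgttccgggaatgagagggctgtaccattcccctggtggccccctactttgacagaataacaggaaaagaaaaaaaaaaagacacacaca
Bhlhe41, chr6:145865421-145865670, minus strand: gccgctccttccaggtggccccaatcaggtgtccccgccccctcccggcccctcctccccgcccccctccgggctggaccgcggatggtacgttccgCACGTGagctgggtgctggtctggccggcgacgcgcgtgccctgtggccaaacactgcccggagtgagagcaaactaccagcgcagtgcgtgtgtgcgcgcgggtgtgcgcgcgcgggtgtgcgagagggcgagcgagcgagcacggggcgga

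The upstream Bcl6 window holds 1 E-box and 2 short cores, one of which overlaps the E-box, and the downstream window holds 1 match to the Bcl6 site. The Bhlhe41 window holds 1 E-box, and the Eomes window, not shown, holds none of the motifs. Among 32841 promoter windows of the same length, 6.02% hold the E-box, 17.8% the short core, 1.55% the full element, 3.33% the T-box core and 1.31% the Bcl6 site. A match of letters describes the sequence and does not show that a factor binds there.

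Counted over the 8 genes, both LH 4 h arrays lay below both acyline arrays for 6 genes, namely Tbx2, Tbx3, Zbtb16, Bcl6, Tcf4 and Bhlhe41, against 26.3% of the 24461 probe sets that passed the filter. Bhlhe40 was the 1 gene whose LH 4 h arrays lay above acyline, against 24.2%, and also the 1 gene whose LH 1 h arrays did, against 17.2%. Both LH 1 h arrays lay below acyline for 4 genes, Tbx3, Eomes, Bcl6 and Bhlhe41 (background 19.8%), and all acyline arrays lay above all saline arrays for 5, Tbx2, Tbx3, Eomes, Bcl6 and Bhlhe40 (background 19.2%). At LH 4 h 4 genes, Tbx3, Zbtb16, Bcl6 and Tcf4, lay below every saline array (background 22.2%). Nothing is read from these counts, since the responses chose the genes and the comparisons share the acyline and saline arrays.

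**Figure D2:**
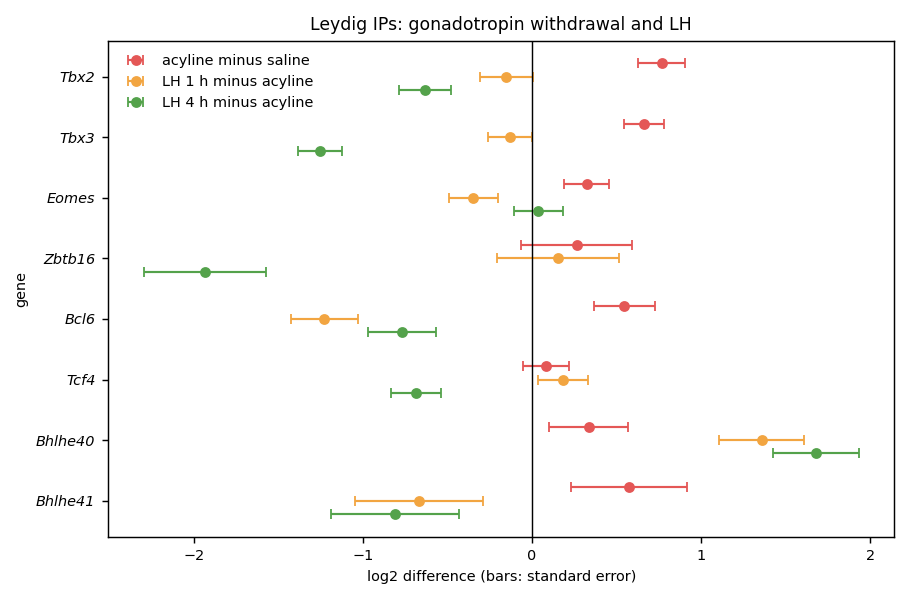
Log2 differences with standard errors (bars) in the Leydig IPs for acyline against saline, LH 1 h against acyline and LH 4 h against acyline, by gene, from 3 saline arrays and 2 arrays in each other group. At LH 4 h Zbtb16 lies lowest at -1.93 and Tbx3 at -1.26, Bhlhe40 lies at 1.68, and Bcl6 is lower at 1 h (-1.23) than at 4 h (-0.77).

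Whether other genes of the same families moved with acyline and LH was tested with limma on lists that leave out the 8 genes. Of 105 tested genes on 5 lists (T-box, BTB zinc finger, E and Id proteins with bHLH repressors, co-repressor complexes, and reported targets of the 8 factors), 1 fell at LH 4 h against acyline at an adjusted p under 0.05 and 1.5-fold. Among all probe sets 0.245% were called higher and 0.368% lower in that comparison. For acyline against saline none of the 105 was called by limma (0.0327% of all probe sets higher, 0.11% lower), and for LH 1 h against acyline none was called (0.00818% higher, 0% lower). At an unadjusted p under 0.05 there were 18 genes for acyline (17.1% of the list genes, against 13.7% of all probe sets), 9 for LH 1 h (8.57% against 6.06%) and 17 for LH 4 h (16.2% against 18.3%). The contrast of the study's methods, with ordinary variances and no adjustment, called 2 genes for acyline (1.9% against 2.38% of all probe sets), 1 for LH 1 h (0.952% against 0.67%) and 5 for LH 4 h (4.76% against 2.86%).

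The gene that fell was Hdac7, a class IIa histone deacetylase that acts with BTB repressors. Its log2 values were 8.25, 8.14 and 7.90 after saline, 8.55 and 8.84 after acyline, 8.38 and 8.25 at LH 1 h, and 7.67 and 7.66 at LH 4 h. LH 4 h lay below every other Leydig IP, by a log2 difference from acyline of -1.03 (standard error 0.14, limma adjusted p = 0.035). The call was lost without acyline replicate 1 (limma adjusted p = 0.103), acyline replicate 2 (0.234) or LH 4 h replicate 1 (0.158), while the log2 difference stayed between -1.17 and -0.88 under all alternatives. It was also lost with a replicate block (limma adjusted p = 0.0988), with no filter (0.065) and with only the compared groups fitted (0.198).

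By list, the T-box family had 8 tested genes with a median log2 difference of 0.02 at LH 4 h against acyline, and the BTB zinc fingers had 43 with a median of -0.0032. The E and Id proteins and bHLH repressors had 14 with a median of -0.06, the co-repressor complexes 28 with -0.06, and the reported targets 12 with 0.04. The median over all probe sets tested was -0.0042. Cdkn2a, a cell cycle inhibitor that Tbx2 and Tbx3 are known to repress, differed by 0.10 (standard error 0.11, limma adjusted p = 0.678) between LH 4 h and acyline, at a mean log2 value of 6.27 against 6.17. After saline, Cdkn2a was not enriched in the Leydig IPs, with a log2 difference from input of -0.25 (standard error 0.08). Its value at LH 4 h therefore cannot tell whether it changed in Leydig cells. Some genes on these lists were not analysed here.

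Enrichment in the tagged cells, the IP against the input after saline, was tested in each line. The Leydig saline IPs also entered the acyline responses that gave the 8 genes, and a response in Leydig IPs needs signal there. The Leydig enrichments, and their comparisons with Sertoli cells below, are therefore not independent of the choice. The enrichment of Tbx2, Tbx3 and Eomes in these cells was also known from the study then, so their tests in either line are not independent. In Leydig cells 6 of the 8 were enriched at an adjusted p under 0.05 and at least 2-fold, against 11% of all 24705 probe sets called higher and 10.7% called lower. Tbx3 led with 3.52-fold (a log2 difference of 1.82 with a standard error of 0.10, limma adjusted p = 1.90e-06). Tcf4 followed with 2.67-fold, Bhlhe41 with 2.42-fold, Bhlhe40 with 2.25-fold, Zbtb16 with 2.03-fold (limma adjusted p = 0.0207) and Tbx2 with 2.01-fold. Bcl6, at 1.94-fold, lay just under the threshold (log2 0.95, standard error 0.08, limma adjusted p = 1.74e-05), and Eomes was at 1.03-fold (adjusted p = 0.772).

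Tbx2 at 2.01-fold and Bcl6 at 1.94-fold lie on either side of 2-fold, so their calls turn on small shifts: without input replicate 2, IP replicate 1 or IP replicate 2 Tbx2 fell under 2-fold (log2 0.92, 0.99 and 0.94), and without input replicate 1 Bcl6 passed it. The Zbtb16 call was lost without IP replicate 1 (log2 0.81, limma adjusted p = 0.0682), IP replicate 3 (0.83, 0.0715) or input replicate 2 (0.94, 0.0561), and the Bhlhe41 call without IP replicate 2, at a log2 difference of 0.87 (adjusted p = 0.000824).

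In Sertoli cells 4 of the 8 were enriched: Bhlhe40 4.24-fold (log2 2.08, standard error 0.14, limma adjusted p = 3.85e-08), Eomes 3.75-fold (log2 1.91, standard error 0.19), Bcl6 2.97-fold (log2 1.57, standard error 0.08) and Tcf4 2.49-fold (log2 1.32, standard error 0.06). Among all 24797 probe sets 12.4% were called higher and 11.7% lower. The other 4 did not reach 2-fold: Tbx2 differed by 0.09 (standard error 0.06), Tbx3 by -0.26 (standard error 0.08), Zbtb16 by -0.75 (standard error 0.16) and Bhlhe41 by -0.10 (standard error 0.12). All 5 Sertoli IPs lay below all 5 inputs for Zbtb16, with log2 values of 6.72, 6.35, 6.70, 6.94 and 6.87 against 7.38, 7.36, 7.0, 7.79 and 7.78.

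The difference between the enrichments of the lines, tested as an interaction after the values were seen, passed an adjusted p of 0.05 for 7 of the 8 genes, 4 of them enriched more in Leydig cells (as were 16.1% of 25524 probe sets) and 3 more in Sertoli cells (19.4%). Tbx3 was enriched more in Leydig cells by 2.07 on the log2 scale (standard error 0.12, limma adjusted p = 1.63e-09), Zbtb16 by 1.77 (standard error 0.35, adjusted p = 0.000611), Bhlhe41 by 1.37 (standard error 0.32, adjusted p = 0.00234) and Tbx2 by 0.91 (standard error 0.12, adjusted p = 9.95e-06). Eomes, with a difference of -1.86 (standard error 0.28, limma adjusted p = 4.51e-05), Bhlhe40, with -0.91 (standard error 0.21, adjusted p = 0.0027), and Bcl6, with -0.62 (standard error 0.12, adjusted p = 0.000792), were enriched more in Sertoli cells. For Tcf4 the difference was 0.10 (standard error 0.12, limma adjusted p = 0.581).

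**Figure D3:**
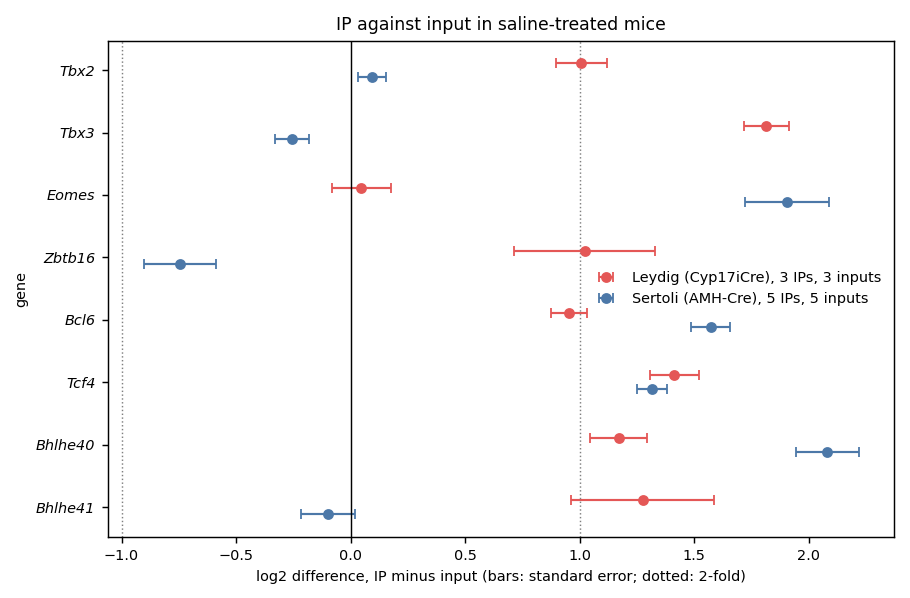
Log2 difference between IP and input after saline with its standard error (bars), for Leydig cells (3 IPs, 3 inputs) and Sertoli cells (5 IPs, 5 inputs), with dotted lines at 2-fold. Tbx2, Tbx3, Zbtb16 and Bhlhe41 lie to the right in Leydig cells only, Eomes in Sertoli cells only, and Bcl6, Tcf4 and Bhlhe40 lie near or beyond 2-fold in both.

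The saline IPs of the lines were also compared directly, at 1.5-fold and an adjusted p under 0.05, in a fit of all IPs. Cell type and Cre line go together in this comparison, so their parts cannot be told apart. Eomes inputs lay at 5.67 to 6.22 in AMH-Cre and 5.31 to 5.57 in Cyp17iCre mice. Those of Bhlhe40 lay at 5.63 to 6.28 and 5.40 to 5.53. Inputs of the other genes overlapped between the lines. Of the 8 genes 4 were higher in Leydig IPs (12.4% of 25399 probe sets were) and 3 were higher in Sertoli IPs (13.3% were lower in Leydig IPs). Tbx3 was 4.79-fold higher in Leydig IPs (log2 2.26, standard error 0.09, limma adjusted p = 3.27e-13), with 8.64, 8.89 and 8.56 against 6.58, 6.38, 6.32, 6.49 and 6.42 in the Sertoli IPs. Zbtb16 was 3.96-fold higher, Bhlhe41 2.43-fold and Tbx2 1.88-fold, and for all 4 every Leydig array lay above every Sertoli array. Eomes was 5.29-fold higher in Sertoli IPs, Bhlhe40 2.51-fold and Bcl6 1.56-fold, again with no overlap between arrays. Tcf4 differed by 0.22 (standard error 0.09, limma adjusted p = 0.0395), under 1.5-fold and with overlapping arrays.

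The Sertoli markers found in the Leydig IPs, given above, stand beside the genes that were higher in Sertoli IPs, and their part in the Leydig enrichment of Bcl6, Bhlhe40 and Tcf4 was not tested. Eomes was 3.75-fold enriched in Sertoli IPs and at 1.03-fold in Leydig IPs, where its values lay near the bottom of the scale. A part of Sertoli RNA in its Leydig values was likewise not tested.

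Bhlhe40 makes the crossing of the lines visible. Its saline level was lower in Leydig than in Sertoli IPs, at 6.49 to 6.91 against 8.25, 8.12, 7.87, 7.66 and 7.87. At LH 4 h the Leydig arrays stood at 8.78 and 8.50, above all Sertoli IPs, which reached 8.25 at most. Bcl6 in Leydig IPs ranged from 6.44 at LH 1 h to 8.12 after acyline, within reach of the Sertoli saline values of 8.25, 8.16, 7.96, 7.80 and 8.0 only after acyline.

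Of the T-box family 15 of 17 listed genes were measured. In Leydig IPs 12 passed the filter and Tbx2 and Tbx3 were the enriched ones, with a median log2 difference over the 12 of -0.05 against -0.03 over all probe sets. In Sertoli IPs 11 passed, and Tbx22 (5.06-fold), Tbx18 (4.66-fold) and Eomes were enriched. Between the saline IPs 2 T-box genes were higher in Leydig and 3 in Sertoli cells, where Tbx18 was 5.50-fold higher (limma adjusted p = 5.25e-10), Eomes 5.29-fold and Tbx22 4.58-fold (limma adjusted p = 2.41e-09). Tbx18, which patterns mesenchyme around the urogenital tract, had log2 values of 6.11, 6.15 and 6.17 in the Leydig saline IPs and 8.78, 8.65, 8.68, 8.37 and 8.54 in the Sertoli saline IPs. The summed linear signal of 6 peritubular myoid cell markers was 3452 to 3879 in the Sertoli saline IPs against 2002 to 2413 in their inputs. Of these 6 markers 2 were enriched there and 1 was depleted. A part of such cells in the Sertoli values of these T-box genes was not tested. Mga, which carries a T-box and pairs with MAX, was at 1.35-fold in Leydig and 1.94-fold in Sertoli IPs, under the threshold in both.

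**Figure D4:**
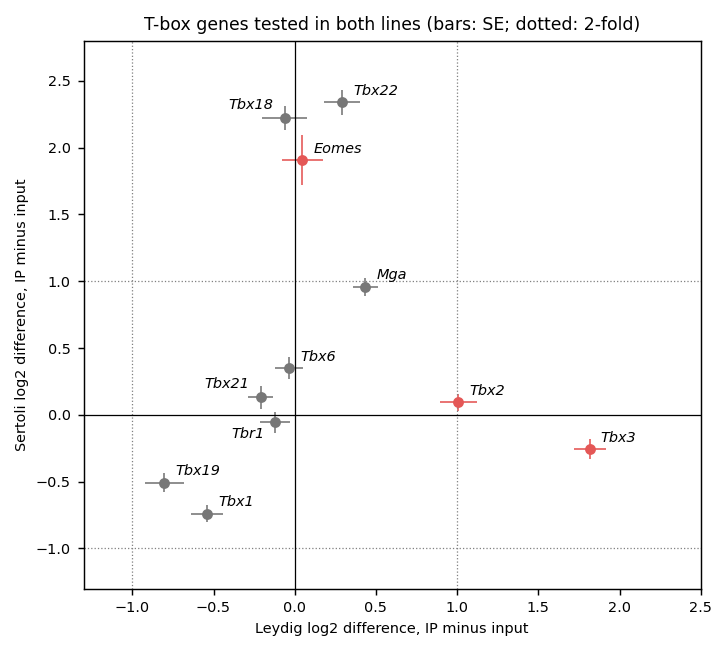
Log2 difference between IP and input after saline in Leydig cells (horizontal) against Sertoli cells (vertical) for the 11 T-box genes tested in both lines, with standard errors (bars) and dotted lines at 2-fold, and with Tbx2, Tbx3 and Eomes in red. Tbx2 and Tbx3 lie past 2-fold in Leydig cells alone, Eomes, Tbx18 and Tbx22 in Sertoli cells alone, and no T-box gene lies past 2-fold in both.

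Counts over the next 4 lists stand beside the same shares of all probe sets as above: 11% enriched and 10.7% depleted in Leydig IPs, 12.4% and 11.7% in Sertoli IPs, and between the saline IPs 12.4% higher and 13.3% lower in Leydig cells. In the BTB zinc finger family 7 of 45 tested genes were enriched in Leydig IPs and 2 were depleted, with a median log2 difference of -0.12 against -0.03 over all probe sets. Zbtb16 was the lowest of the 7, and the highest were Zbtb8b (4.48-fold), Zbtb20 (4.01-fold) and Zbtb33, known as Kaiso (2.46-fold). In Sertoli IPs 9 were enriched and 3 were depleted, with Zbtb20 (3.03-fold), Zbtb7a (2.98-fold), Bcl6 and Zbtb39 (2.97-fold) at the top. Between the saline IPs 3 of the 45 were higher in Leydig cells, Zbtb8b (4.07-fold), Zbtb16 (3.96-fold) and Zbtb20 (2.13-fold), and 9, among them Bcl6 and Zbtb43 (2.35-fold), were higher in Sertoli cells.

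Among 18 E proteins, Id proteins and bHLH repressors 5 were enriched in Leydig IPs and 1, Id4, an inhibitor of E proteins, was depleted. Beside Tcf4, Bhlhe40 and Bhlhe41 these were Hes6 (2.26-fold) and the E protein Tcf12 (2.03-fold). In Sertoli IPs 4 were enriched, Bhlhe40, Id2 (4.11-fold), the Notch target Hes1 (3.29-fold) and Tcf4. Hes1 was 3.50-fold higher in Sertoli than in Leydig saline IPs and Id2 2.87-fold, while Tcf12 was 1.95-fold higher in Leydig IPs.

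Of 28 co-repressor genes 4 were enriched in Leydig IPs, Tle5 (3.45-fold), Tbl1x (2.81-fold), Ctbp1 (2.42-fold) and Hdac7 (2.40-fold), and Gps2 was depleted. In Sertoli IPs 6 of 27 were enriched, led by Tbl1x (3.72-fold), Tle4 (3.52-fold) and Sin3b (3.42-fold), and 3 were depleted. Between the saline IPs 5 were higher in Leydig cells, led by Hdac7 (2.66-fold), and 8 were higher in Sertoli cells, led by Sin3b (4.31-fold) and Tle4 (3.00-fold). Of 12 tested genes known as targets of the 8 factors, 3 were enriched in Leydig IPs, the gap junction gene Gja1 (3.99-fold), the clock output gene Dbp (2.64-fold) and cyclin Ccnd2 (2.60-fold). In Sertoli IPs 6 were, among them Gja1 (5.39-fold), Ndrg1 (5.25-fold) and the circadian activator Arntl (2.26-fold).

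In Sertoli IPs the hormones were tested on all 8 genes, except for Eomes at FSH 1 h. The study had already named Eomes for that contrast. Tbx2, Tbx3, Zbtb16 and Bhlhe41 were not enriched over the inputs in Sertoli IPs. A lack of change in them therefore cannot tell whether Sertoli cells regulate them. By limma none of the 8 changed with acyline, where 0.00406% of all probe sets were called, with cetrorelix (0.0122%), with testosterone against cetrorelix (0.00406%) or with FSH for 4 h against acyline (0.0203%). None of the 7 tested genes changed with FSH for 1 h, where 0% of 24648 probe sets were called, although 2324 had an unadjusted p under 0.05 (9.43%). At an unadjusted p under 0.05 there were 2 genes for acyline (Tbx2 and Tbx3), 1 for testosterone (Tbx3) and 0 for the others. Among all probe sets 5.01% passed that level for acyline, 4.99% for cetrorelix, 5.01% for testosterone and 4.4% for FSH 4 h. The contrast of the study's methods called 0 of the genes in each, and of all probe sets 113 for acyline, 95 for cetrorelix, 157 for testosterone, 318 for FSH 1 h and 151 for FSH 4 h. Log2 differences lay between -0.20 and 0.21 for acyline, -0.12 and 0.16 for cetrorelix, -0.20 and 0.35 for testosterone, -0.16 and 0.08 for FSH 1 h without Eomes, and -0.24 and 0.32 for FSH 4 h.

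Tbx2 and Tbx3 stood between 6.31 and 6.77 in all Sertoli IPs, while Tbx2 spanned 7.36 to 8.46 and Tbx3 8.06 to 9.46 in the Leydig IPs. Whether the responses to acyline differ between the cell types was not tested, as the Leydig responses chose the genes. Zbtb16 lay between 6.35 and 6.97 in all Sertoli IPs, and Bhlhe40 between 7.66 and 8.25.

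Eomes was the gene that spread most among the Sertoli IPs. Its log2 values were 8.21, 8.10, 8.16, 7.18 and 7.95 after saline, 7.87 and 7.96 after acyline, 6.73 and 7.23 at FSH 1 h, 7.86 and 7.49 at FSH 4 h, 8.30 and 7.53 after cetrorelix, and 8.19 and 8.18 after testosterone. Saline replicate 4 stood apart from the other saline arrays. The FSH 1 h arrays lay below both acyline arrays by a log2 difference of -0.94 (standard error 0.32), a 1.92-fold lower value given as a description, and 1 of them lay above saline replicate 4. The inputs had 6.06, 6.22, 5.91, 6.20 and 5.67, below every Sertoli IP.

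**Figure D5:**
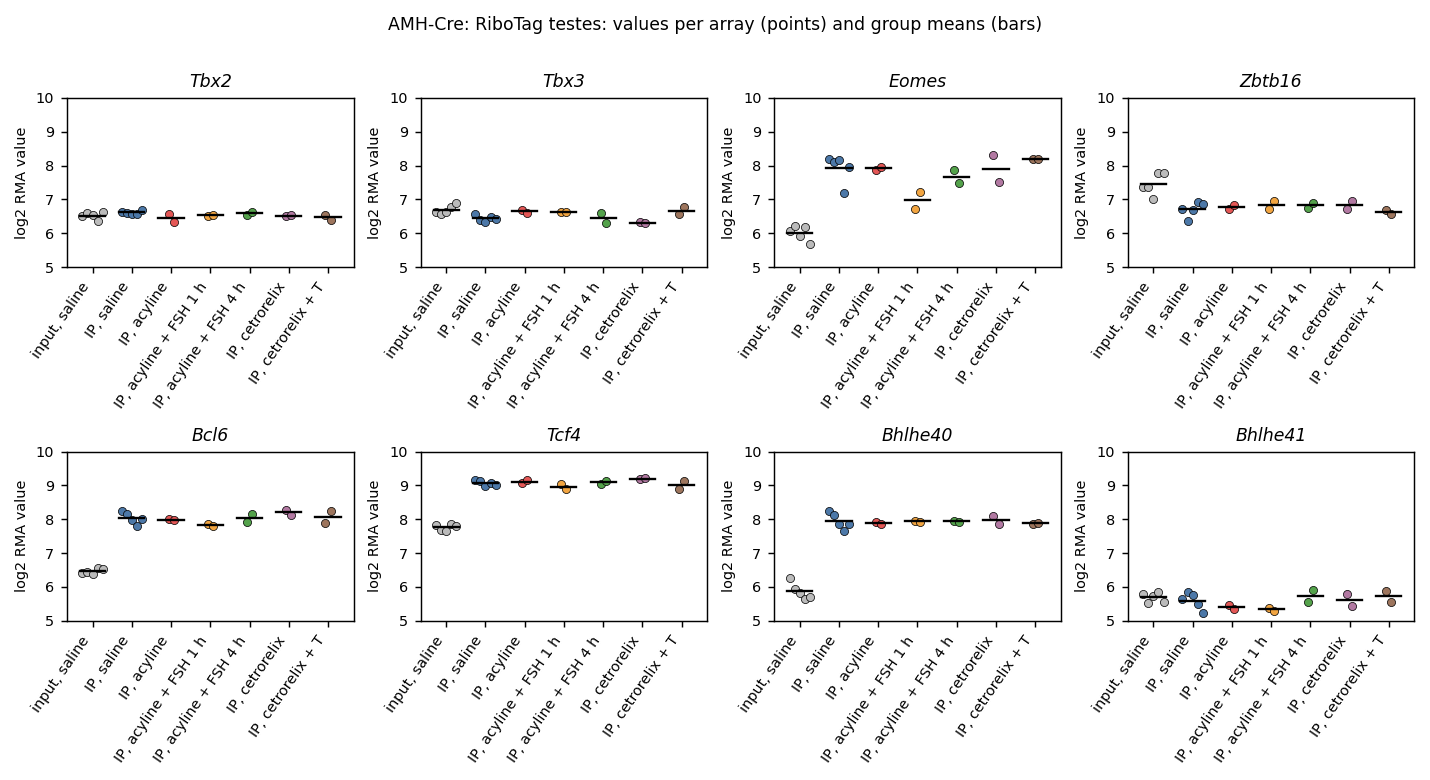
Log2 RMA values of the 8 genes in AMH-Cre: RiboTag testes, 1 point per array with a bar at the group mean, for saline inputs and IPs and for the IPs of the 5 treatments (T is testosterone). Eomes, Bcl6, Tcf4 and Bhlhe40 lie above the inputs in every IP group, Eomes dips at FSH 1 h to 6.73 and 7.23 with saline replicate 4 at 7.18, and Zbtb16 lies below its inputs in all 5 saline IPs.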

How the data were processed

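The 32 arrays (Affymetrix Mouse Gene 1.0 ST) were deposited by the authors as log2 values normalized with RMA (robust multi-array average), which corrects background, quantile-normalizes the arrays and summarizes probes into probe sets. Its version was not given in the sources used here. RMA forces the arrays to 1 distribution, so a shift shared by most transcripts would not be seen. Groups came from the sample labels. The 4 arrays of cetrorelix, with or without testosterone, were treated as IPs following their titles, although 1 other label calls them input. Of 35556 probe sets 21789 had 1 gene symbol, 1621 several and 12146 were unnamed here, and each of the 8 genes had 1 probe set.

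Differences were fitted with limma 3.58.1 in R 4.3.3 (lmFit, eBayes, 1 mean per group, no covariates) on probe sets with a linear value over 50 in at least 1 array of the fit, which all 8 genes passed. P-values were two-sided and adjusted over all probe sets tested (Benjamini-Hochberg). Calls needed an adjusted p under 0.05 with 2-fold for IP against input and 1.5-fold otherwise. The interaction of enrichment and line was added after seeing the data. Named genes were the 8 genes, at most 5 called genes of a list and comparison by size, and 5 probe sets most like Tbx2 and Tbx3. Kit, Trf, Gfra1, Nanos2, Mga and Cdkn2a were named after their values were seen. The 8 genes and all lists were chosen with earlier results of these data known. Same-numbered arrays of different groups deviated together weakly (r from -0.18 to 0.16), so the numbers were not taken as pairs. Alternatives changed the filter, scaling, variance model, block, groups fitted and arrays kept. The fits were tested on simulated data. Figures were drawn in Python 3.11.15.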

Additional observations from a re-analysis of the deposited data

Results flagged for a closer look

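In the Sertoli saline IPs, Eomes of replicate 4 (log2 7.18) lay apart from the other 4 arrays, with a gap of 0.749 of the group's range. It was the 1 such array among 16 gene and group combinations examined, where chance gives about 1 in 20.

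The enrichment of 7 genes differed between the lines by a limma test of the difference itself, added after the values were seen, which 16.1% of all probe sets passed as enriched more in Leydig cells and 19.4% as enriched more in Sertoli cells. Values are log2 Leydig minus Sertoli, and the tests are not independent of the choice of the genes. The values were 2.07 for Tbx3, 1.77 for Zbtb16, 1.37 for Bhlhe41 and 0.91 for Tbx2. They were -1.86 for Eomes, -0.91 for Bhlhe40 and -0.62 for Bcl6.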

How the results depend on the processing

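Of 520 values of 33 tested results under the alternatives, 500 kept direction and call, 16 lost the call, 1 gained it and 3 changed sign. Those that changed sign were uncalled: Eomes in Leydig IP against input was -0.030 without input replicate 1 (0.12 at most, without IP replicate 3), the Tcf4 difference between lines was -0.0090 without Leydig IP replicate 1 (0.18 at most, without replicate 2), and Bhlhe41 in Sertoli IP against input was 0.07 with saline replicates 1 to 3 alone. Of 158 values of 25 descriptions, 157 moved by less than the spread, the root of the mean variance of the 2 groups compared. Leaving out 1 array cannot move a difference past that spread, so only the scalings could do so. Eomes at LH 4 h moved to 0.12 under quantile normalization. Sign changes of small differences were not counted as moves. Without 1 array, Tbx2 at LH 1 h reached 0.02, Eomes at LH 4 h -0.03 and Zbtb16 for acyline -0.14. Genes enriched in Leydig IPs numbered 4 to 7, with Tbx2 at 0.99 after median centering and Zbtb16 at an unadjusted p of 0.0694 under the methods' contrast across all probe sets. Genes differing between lines numbered 6 to 7, with Bcl6 at -0.58 without Sertoli IP replicate 1. Calls on the lists numbered 86 to 95. The limma adjusted p of Hdac7 was 0.065 with no filter and 0.198 with only the compared groups fitted. A replicate block changed no call of the 8 genes (6 enriched in Leydig IPs and 4 in Sertoli IPs), while Hdac7 lost its call (limma adjusted p = 0.0988). Probe sets called at LH 4 h went from 150 to 4 with the block, and those for acyline in Leydig IPs from 35 to 0. With crossed numbers, chosen after seeing the data, 9 were called at LH 4 h and 1 for testosterone. Where 1 of 2 arrays was left out, the other was assumed to vary like the remaining groups. Averaging over probe sets was not run, as each gene had 1. The causes were not tested.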
